A study of Mus musculus with 6 samples.

Results

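The 86 cytosolic ribosomal protein genes of the mouse were examined in poly(A)-selected RNA-Seq libraries of embryonic stem cells, out of 43309 annotated genes with a row of counts. Members were protein-coding genes whose symbol starts with Rpl or Rps and a number, together with Rpsa, Rplp0, Rplp1 and Rplp2. Ribosomal protein S6 kinase genes and symbols marked as pseudogenes were left out. Of these 86 genes, 31 encode core proteins of the small subunit, 46 encode core proteins of the large subunit and 9 are paralogs or relatives of core genes. The study compared 3 control libraries with 3 libraries labelled knockout, each prepared with the TruSeq Stranded mRNA kit from 2 µg of total RNA. Every library came from J1 (129SV) mouse embryonic stem cells, which were grown in medium with serum on gelatin and without feeder cells. The control lines are labelled Zbtb24 wild-type (2lox/+), so they carry a floxed and an unaltered copy of Zbtb24, a zinc finger gene mutated in the human ICF immunodeficiency syndrome. The other lines are labelled Zbtb24 knockout (1lox/1lox), and the series design gives the lines of both genotypes as separate clones. In such bulk libraries, fewer cells of a type and less RNA per cell cannot be told apart.

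Each ribosome is built from a small subunit, which reads the mRNA, and a large subunit, which joins amino acids, and nearly every ribosomal protein is present in a single copy per ribosome. The genes are scattered over the genome and are among the most highly expressed in dividing cells such as embryonic stem cells, and their mRNAs mostly begin with a terminal oligopyrimidine tract, a run of C and T bases through which mTORC1 and LARP1 control their translation. Because these mRNAs are abundant and short, reverse-transcribed copies of them have been inserted into the genome many times, so most ribosomal protein genes have processed pseudogenes that look like their coding sequence.

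Control libraries held between 26987179 and 27754105 counts, and those labelled knockout between 25042261 and 28838924. The controls had 510, 512 and 489 counts of Zbtb24 and the libraries labelled knockout 888, 925 and 1039, so the level of the targeted gene ran against the label (log2 fold change 0.99 ± 0.05 SE, FDR = 4.32e-23). A gene total does not show whether the exons between lox sites were lost, and the genotype is therefore given as a label throughout. All 10 markers of embryonic stem cells were detected in every library, and their summed level was 4969 to 5078 CPM (counts scaled by the effective library size) in the controls and 6069 to 6155 CPM in the libraries labelled knockout, although Zfp42 (802.6 to 813.1 CPM against 464.1 to 479.2 CPM) and Lin28a (537.4 to 548.8 CPM against 389.0 to 414.0 CPM) were lower. The 4 fibroblast markers summed to 59.1 to 61.3 CPM in the controls and to 12.1 to 12.9 CPM in the others, the 3 trophoblast markers to 7.92 to 8.99 CPM and to 1.15 to 1.67 CPM, and the 4 neural markers to 280.4 to 285.9 CPM and to 262.1 to 269.9 CPM. Within the neural sum, Nes was at 92.8 to 96.4 CPM and at 18.7 to 19.1 CPM, while Tubb3 was at 172.3 to 179.0 CPM and at 232.5 to 240.0 CPM. Most of the fibroblast sum in the controls was Col1a1, at 38.9 to 43.25 CPM and at 3.52 to 4.47 CPM. Col1a2 and Thy1 were lower too, but Pdgfrb overlapped between the groups (2.91 to 4.05 CPM and 2.83 to 3.25 CPM). The 5 endoderm markers summed to 4.44 to 4.59 CPM and to 4.25 to 5.77 CPM, and the 4 mesoderm markers to 6.69 to 6.95 CPM and to 7.90 to 9.26 CPM. Among the endoderm markers, all with few counts, Gata4 and Sox17 were lower, Sox7 was higher, and Gata6 and Afp overlapped. Among the mesoderm markers, T was lower (1.31 to 1.75 CPM and 0.89 to 1.17 CPM), Eomes and Mixl1 were higher, and Mesp1 overlapped. Most of the trophoblast sum in the controls was Hand1, at 6.68 to 8.08 CPM and at 0.71 to 0.93 CPM. Cdx2 was lower too, but Elf5 overlapped. No marker was at 0 in every library, and the part of these cells in the results on ribosomal protein genes was not tested. Libraries of the same group differed by more than counting noise in every pair, but by little, with a chi-square of 1.14 to 2.15 per gene and a typical coefficient of variation of 2.00%, so that p-values across genes measure a narrow spread.

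As a class, the ribosomal protein genes took a share of the counts that differed between the groups by less than the spread between replicates. They held 6.20%, 6.36% and 6.34% of all counts in the controls, against 6.29%, 6.24% and 6.41% in the libraries labelled knockout, so the groups overlapped. The means were 6.30% ± 0.087 (SD, n = 3) and 6.31% ± 0.085, a difference of 0.0137 percentage points. The 34 genes with small subunit symbols held 2.54% ± 0.037 and 2.46% ± 0.044, again with overlap. The 52 genes with large subunit symbols held 3.76% ± 0.051 in the controls and 3.85% ± 0.041 in the others, and every library labelled knockout was above every control, by 0.0893 percentage points on average. This sum includes large gains of single genes described below, on chromosomes 1 and 6: Rpl7 (564.1 CPM), Rpl32 (401.5 CPM), Rpl31 (281.2 CPM) and Rpl37a (182.1 CPM). It also includes Rplp0, which gained 419.0 CPM while its sequence copies changed by -437.3 CPM. Of the 46 core large subunit genes, 17 were called higher and 13 lower. The share without the genes of large gain was not computed. Two-sided exact permutation tests of the 3 shares were run and none passed 0.05, but 3 libraries against 3 allow no p under 0.1. Their p-values are not given, because the members were chosen with results known.

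Levels per length varied more between members than between groups. In the controls, the 77 core genes had a median of 897 FPKM (fragments per kilobase of transcript, scaled like CPM), a 10th percentile of 378 FPKM and a 90th percentile of 1480 FPKM. Rplp1, an acidic protein of the stalk that recruits elongation factors, was highest at 2801 ± 9.25 FPKM (SD, n = 3), followed by Rps12 at 1924 ± 36.8 FPKM and Rpl8 at 1870 ± 62.6 FPKM. Rps12 and Rpl8 did not differ beyond their spread. Rpl24, which forms a bridge between the subunits, stood far below the other core genes at 9.95 ± 1.28 FPKM. Its counts were 208, 158 and 194 in the controls and 158, 111 and 154 in the libraries labelled knockout, and 80.9% of the read-length windows (76 bases) of its transcript occur unaltered in another annotated gene. Such shared windows are common among the members, with a median of 44.4%, and in 39 members most of the windows were shared. Reads from them can match several places, although the reads were paired and the mate may place the fragment. Shares of windows count single reads, not fragments. The authors discarded fragments with several locations, so a level may be too low where copies exist. The share alone does not give the level, since 82.5% of the windows of Rps12 were shared as well. The levels also depend on the transcript taken as representative, which was unusually long for Rps15a (5179 bases) and Rps20 (3706 bases), both of which appeared low at 125.2 and 235.3 FPKM.

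With edgeR's quasi-likelihood test and Benjamini-Hochberg adjustment over all genes tested (FDR at most 0.05), 22 members were higher and 32 were lower in the libraries labelled knockout, and 32 did not pass. Of all 16823 genes tested, 69.5% passed (34.4% higher and 35.2% lower), against 62.8% of the members (25.6% higher and 37.2% lower). The small subunit had 5 genes higher and 12 lower of 31, the large subunit 17 higher and 13 lower of 46, and the paralogs and relatives 0 higher and 7 lower of 9. The groups did not overlap in 48 members (55.8%), against 71.5% of all genes tested. Most of these differences were very small, and their split depended on the scaling: with library totals in place of TMM factors 17 members were higher and 46 lower, and with a correction for transcript length and GC content 54 were higher and 7 lower. That correction moved the median of all genes by 0.112 on the log2 scale and the median of the members to 0.0933, so relative to all genes the members stayed close to their place. Each gene was still tested against 0 under it, so calls gained or lost with the correction include this common shift.

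The size of the changes is the more informative quantity, because it was small beside that of all genes tested and of other genes with many counts. The median absolute log2 fold change was 0.0745 over the members, 0.335 over all genes tested and 0.190 over the 5361 other genes whose counts averaged 1000 or more. Of the 86 members, 55 changed by less than 0.1 on the log2 scale and 70 by less than 0.2. Only 13 (15.1%) had an absolute log2 fold change over 0.3, compared with 53.4% of all genes and 32.1% of the other genes at that level of counts. Small changes were not particular to the members. The 36 translation factors listed further below had a median absolute log2 fold change of 0.077, with 8.33% over 0.3. The median was 0.142 for the ribosome assembly factors and 0.147 for the genes of RNA polymerase I. When the test asked for a change beyond a fold of 1.2, 40.6% of all genes passed and 11 members did (12.8%). Of these, 9 were higher (Rpl29, Rps3a1, Rpl31, Rpl32, Rpl37a, Rpl7, Rplp0, Rpl34 and Rps2) and 2 were lower (Rpl39l and Rpl10l). The 9 that were higher were of 2 kinds, being either on chromosome 1 or the far end of chromosome 6 (Rpl7, Rpl31, Rpl37a and Rpl32), or genes whose sequence copies elsewhere in the genome held over 5% of the counts of gene and copies together in the controls (the other 5). The 2 that were lower were both paralogs with restricted expression.

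**Figure D1:**
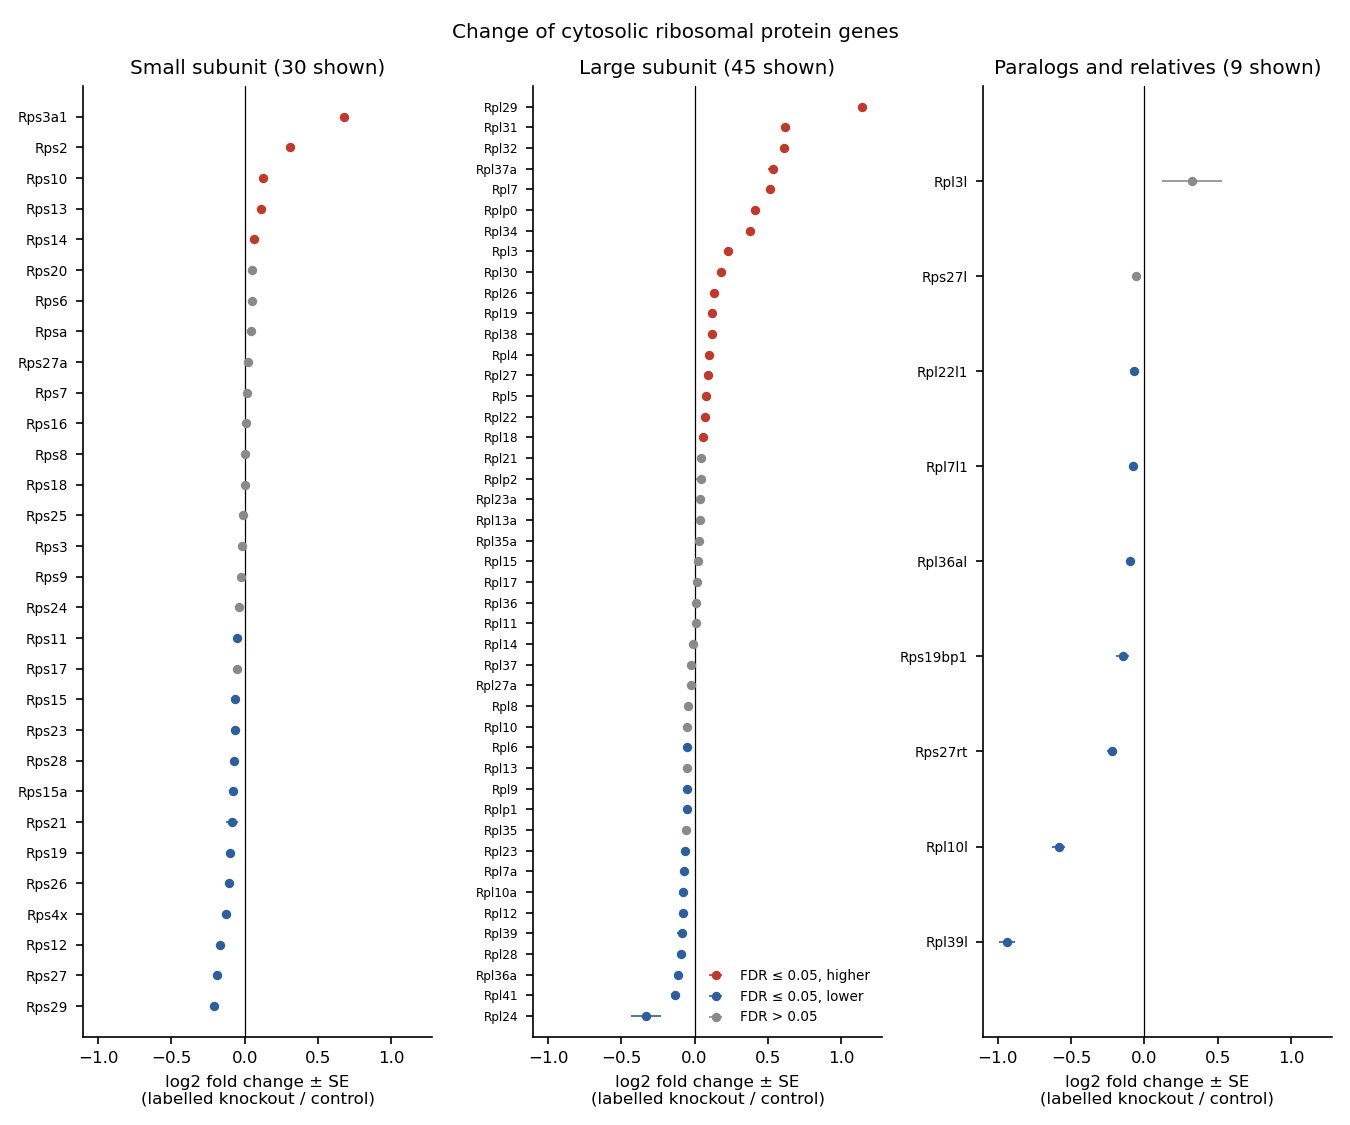
Log2 fold change (libraries labelled knockout over control) with its standard error for 84 of the 86 members, in panels for the small subunit, the large subunit and the paralogs, coloured by whether edgeR's FDR was at most 0.05. Most points lie within 0.1 of 0, with a tail of higher genes that ends at Rpl29 (1.14) and the paralogs Rpl10l (-0.59) and Rpl39l (-0.94) at the lower end; the side of 0 of the smallest changes depended on the scaling.

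**Figure D2:**
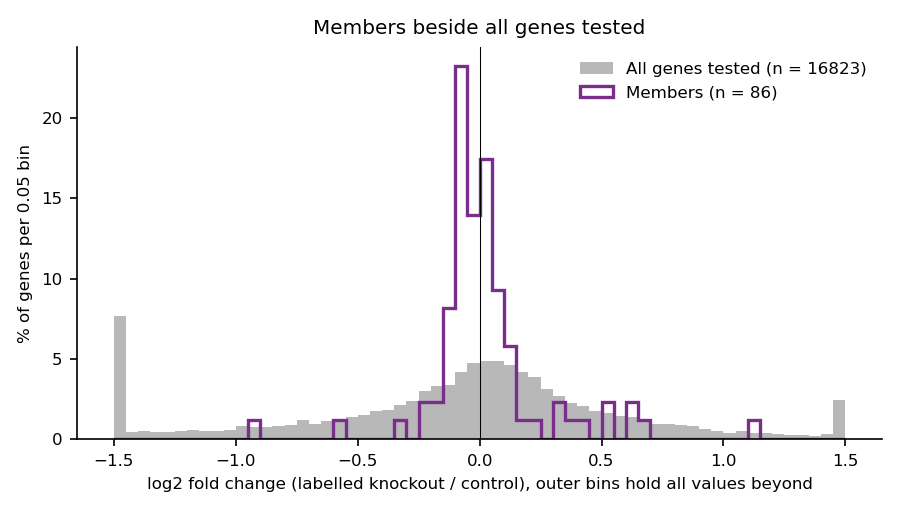
Percentage of genes per bin of log2 fold change (bin width 0.05) for the 86 members (line) and all 16823 genes tested (grey), with values beyond the axis collected in the outer bins. The members form a narrow peak around 0, with a median absolute log2 fold change of 0.0745 against 0.335 for all genes.

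The members of chromosome 1 moved with the other genes of that chromosome. Rpl7, a protein of the large subunit (chr1:16101295-16104662 in GRCm38), was at 1300, 1315 and 1303 CPM in the controls and at 1883, 1876 and 1853 CPM in the libraries labelled knockout (log2 fold change 0.52 ± 0.02, FDR = 4.35e-27). Rpl31, which lies near the exit of the peptide tunnel (chr1:39367842-39371911), was at 535.8, 526.3 and 527.1 CPM and at 816.4, 821.6 and 794.7 CPM (0.61 ± 0.02, FDR = 1.34e-28). Rpl37a, a zinc-binding protein of the large subunit (chr1:72711290-72713813), was at 393.6, 405.3 and 426.6 CPM and at 569.0, 575.6 and 627.2 CPM (0.53 ± 0.03, FDR = 2.29e-22). In all 3 genes every library labelled knockout was above every control, and their values were close to one another. The 977 other genes of chromosome 1 that averaged 10 or more counts had a median log2 fold change of 0.50, with 66.3% of them higher and 15.2% lower, whereas the 15428 other genes of the whole genome had a median of 0.01.

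Rpl32, a large subunit protein and the only member on chromosome 6 (chr6:115805505-115808747), was at 752.2, 767.7 and 771.5 CPM in the controls and at 1160, 1131 and 1205 CPM in the libraries labelled knockout (log2 fold change 0.61 ± 0.02, FDR = 3.65e-28). The 274 other genes of that chromosome from 100 Mb on had a median of 0.50, against 0.16 for all 693 others of the chromosome. The converse held for part of chromosome 8, where 228 genes up to 60 Mb had a median of -0.55. Rpl13, a large subunit protein, lies on chromosome 8 beyond that stretch and changed by -0.05 ± 0.02 (FDR = 0.0616), which came to 0.071 with the length and GC correction, where all genes shifted by 0.112. It passed without control replicate 1 (-0.089), and this was not the only such setting. Over 16 alternatives its change ran from -0.098 to 0.071, and in 10 of them it stayed without a call. The 82 members outside chromosomes 1 and 6 had a median of -0.02. The positions of 60 and 100 Mb were chosen after these values had been seen, and what sets the level of whole chromosome stretches in these lines was not tested.

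**Figure D3:**
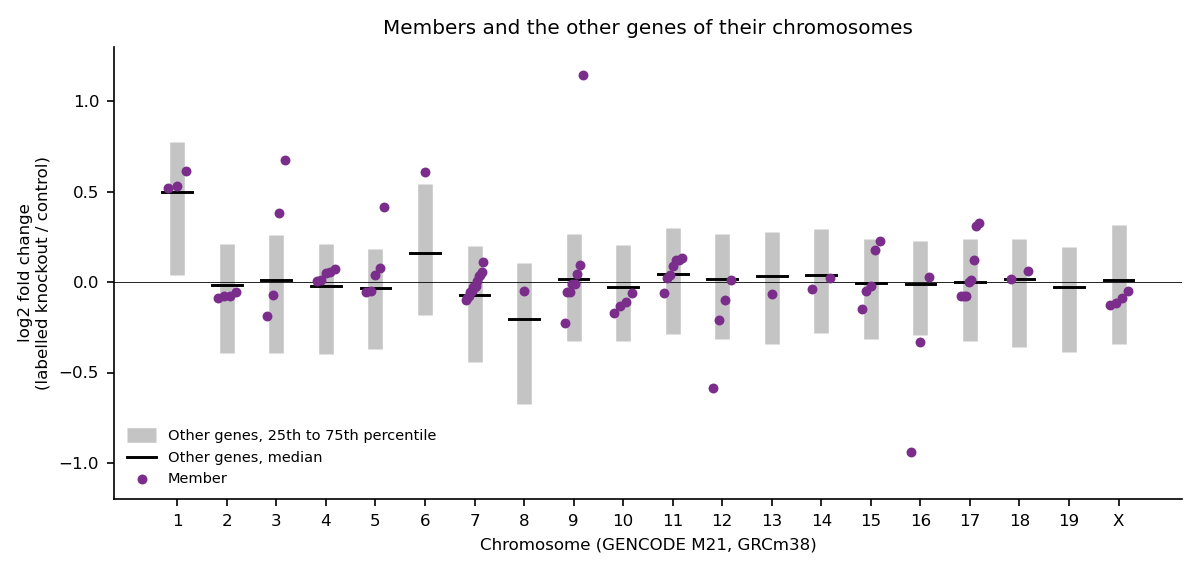
Log2 fold change (libraries labelled knockout over control) of 84 members (points) by chromosome, beside the median (line) and the 25th to 75th percentile (grey bar) of the other genes of that chromosome that averaged 10 or more counts. The 3 members of chromosome 1 (0.52 to 0.61) sit just above the median of the other genes there (0.50), and the member of chromosome 6 (0.61) near the median of genes at its end of the chromosome (0.50).

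The other 5 genes that passed the minimum fold have abundant sequence copies. Copies were taken to be pseudogenes and predicted genes with at least 90% identity to a member's coding sequence over at least 100 bases. There were 770 of them with a row of counts, belonging to 79 members, but only 51 averaged 100 or more counts. In 10 members the copies held over 5% of the counts of gene and copies together in the controls (Rps3a1, Rpl24, Rplp0, Rpl29, Rpl15, Rps13, Rpl3, Rpl34, Rps7 and Rps2). In 9 of these 10, all but Rpl24, the summed copies were lower in the libraries labelled knockout. Of the 10 members, 7 were themselves called higher, where 25.6% of all members and 34.4% of all genes tested were. A cut on the controls alone favours families whose copies were higher there, so these counts describe a selected set. Rps2 passed the 5% cut only in the controls, and the other listed families passed it in both groups. Over all copies, 0.259% to 0.269% of the counts of a control library fell on copies, and 0.151% to 0.156% of those of a library labelled knockout.

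The closeness of a gene to its copies is shown by a read-length stretch of coding sequence from 3 of these families, taken from GENCODE M21 transcripts (GRCm38) at the place where gene and copies differ most. Capitals mark the positions at which any of the listed sequences differ. Positions are counted from 1 at the A of the start codon, and the stretch runs from 63 to 138 in Rplp0, from 185 to 260 in Rps3a1 and from 382 to 457 in Rpl29.
Rplp0: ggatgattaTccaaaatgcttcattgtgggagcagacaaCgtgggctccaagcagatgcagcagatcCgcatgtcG
Gm8730: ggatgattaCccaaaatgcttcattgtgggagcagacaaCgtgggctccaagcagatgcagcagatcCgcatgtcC
Gm9625: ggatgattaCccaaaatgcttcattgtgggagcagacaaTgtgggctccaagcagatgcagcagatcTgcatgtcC
Rps3a1: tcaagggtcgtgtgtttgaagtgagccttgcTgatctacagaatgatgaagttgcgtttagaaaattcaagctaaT
Rps3a2: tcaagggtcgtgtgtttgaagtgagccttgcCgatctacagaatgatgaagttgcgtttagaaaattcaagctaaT
Rps3a3: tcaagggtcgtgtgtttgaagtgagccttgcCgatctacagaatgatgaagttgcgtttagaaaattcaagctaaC
Rpl29: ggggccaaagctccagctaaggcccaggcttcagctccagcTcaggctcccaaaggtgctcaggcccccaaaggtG
Gm10709: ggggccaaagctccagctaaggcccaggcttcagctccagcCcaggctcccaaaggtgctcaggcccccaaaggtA

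Within its stretch, Gm8730 carries the substitutions T72C and G138C relative to Rplp0, and Gm9625 carries T72C, C102T, C130T and G138C. Rps3a2 differs from Rps3a1 by T216C, Rps3a3 by T216C and T260C, and Gm10709 differs from Rpl29 by T423C and G457A. Over the whole coding sequence, Gm8730 had 12 differences in 951 bases and Rps3a2 had 4 in 792 bases, so that 19.1% and 65.0% of their read-length windows, respectively, were identical to the parent gene. Where a window is not identical, 1 or a few bases in it can separate the gene from a copy. The reads were paired, so differences in the mate can also decide where a fragment is assigned.

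Rplp0, the scaffold of the ribosomal stalk (chr5:115559467-115563727), was at 1237, 1282 and 1279 CPM in the controls and at 1659, 1686 and 1710 CPM in the libraries labelled knockout (log2 fold change 0.41 ± 0.02, FDR = 1.79e-22). Its 4 copies together were at 799.6, 839.3 and 833.3 CPM in the controls and at 385.6, 396.0 and 378.6 CPM in the others. Most of these counts came from Gm8730 on chromosome 8, which had 17987, 18482 and 18368 counts in the controls and 7949, 7755 and 8410 in the libraries labelled knockout, and the next from Gm9625 on chromosome 13 with 4141 to 4212 and 1832 to 2097 counts. The gene gained 419.0 CPM and its copies changed by -437.3 CPM. Gene and copies together were at 2090 ± 46.3 CPM and 2072 ± 23.5 CPM (SD, n = 3), and the groups overlapped (log2 fold change -0.01, FDR = 0.609).

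Rps3a1, a protein of the small subunit (chr3:86137940-86142702), showed the same pattern. It was at 496.7, 515.3 and 517.5 CPM in the controls and at 823.4, 806.6 and 816.5 CPM in the libraries labelled knockout (0.68 ± 0.02, FDR = 3.91e-30). Its copies, chiefly Rps3a3 on chromosome 13 and Rps3a2 on chromosome 14, held more than the gene itself in the controls, at 535.8, 549.0 and 549.2 CPM, and fell to 264.9, 259.8 and 247.6 CPM. The share of the copies in the family was 51.7% in the controls and 24.0% in the others. Together they were at 1054 ± 19.1 and 1073 ± 13.4 CPM (log2 fold change 0.03, FDR = 0.306), so that the large rise of Rps3a1 was not seen in the sum.

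Rpl29, a heparin-binding protein of the large subunit (chr9:106429454-106431568), had the largest change of any member. It was at 138.5, 144.4 and 150.1 CPM in the controls and at 308.8, 315.8 and 331.6 CPM in the libraries labelled knockout (1.14 ± 0.03, FDR = 1.32e-35). Its 44 copies were at 52.7, 56.0 and 54.8 CPM in the controls and at 24.8, 27.8 and 23.4 CPM in the others, of which Gm10709 and Gm3550 held the most. Here the copies changed by -29.1 CPM and the gene by 174.4 CPM, and the sum still rose (log2 fold change 0.79, FDR = 2.44e-31). Adding the copies thus left a rise for Rpl29 but not for Rplp0 and Rps3a1.

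The remaining families lay between these. Rpl34, of the large subunit, was at 250.4, 246.2 and 248.8 CPM and at 320.7, 312.2 and 337.4 CPM (0.38 ± 0.03, FDR = 4.76e-18) and kept a log2 fold change of 0.25 in the sum (FDR = 2.38e-12), and Rps2, which lines the mRNA entry channel, was at 998.2 ± 73.8 and 1239 ± 34.3 CPM (0.31 ± 0.03, FDR = 1.44e-13) and kept 0.27 (FDR = 2.79e-12). Rpl3, a protein next to the peptidyl transferase centre, was at 1275 ± 5.89 and 1495 ± 6.94 CPM (0.23 ± 0.02, FDR = 8.58e-14), and its sum changed by 0.12 (FDR = 7.93e-07). In 3 families the sum was lower although the gene was not: Rps13 changed by 0.11 alone and by -0.05 in the sum (FDR = 0.0365), Rpl15 by 0.02 and -0.13 (FDR = 5.88e-07), and Rps7 by 0.01 and -0.07 (FDR = 0.00545). With every member summed with its copies, 20 members were higher and 34 lower, and 8 rather than 13 had an absolute log2 fold change over 0.3. The sums were added after the values had been seen, and the cause of the opposite changes of genes and copies was not tested.

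**Figure D4:**
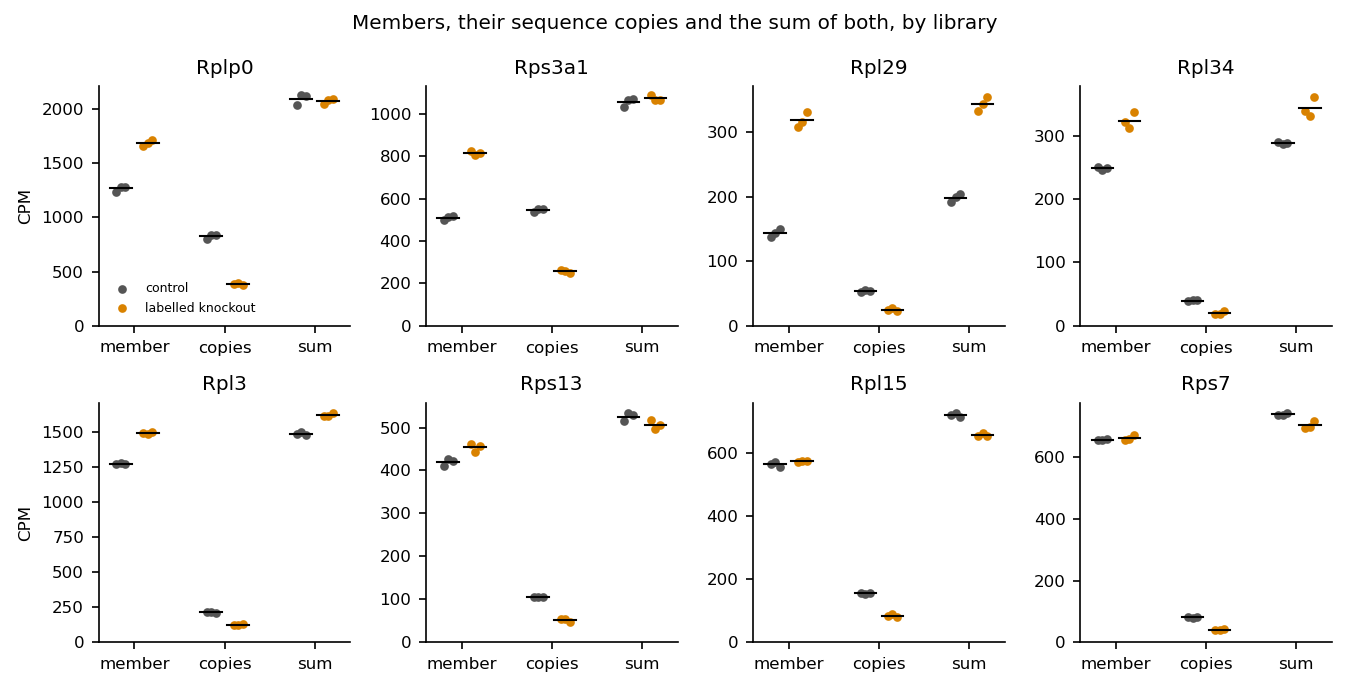
Scaled counts (CPM) by library (points, with the mean as a line) for 8 members, for the sum of their sequence copies and for gene and copies together, in the control libraries (grey) and the libraries labelled knockout (orange). The copies are lower in the libraries labelled knockout in all 8 panels, and for Rplp0 and Rps3a1 the sums of both groups overlap (log2 fold change -0.01 and 0.03).

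The copies did not all fall. Of the 51 that averaged 100 or more counts, 22 were lower and 6 higher (FDR at most 0.05) and 15 were lower by more than 0.8 on the log2 scale, and these 15 lay on 11 chromosomes. The log2 fold change was -1.11 ± 0.03 for Gm8730, -1.13 ± 0.03 for Rps3a3, -1.06 ± 0.03 for Rps13-ps1 on chromosome 8 and -0.99 ± 0.04 for both Rpl15-ps2 on chromosome 9 and Gm6472, a copy of Rps7 on chromosome X. Other abundant copies did not pass the test, such as Rpl10a-ps1 at -0.06 and Rps6-ps4 at -0.04, and the median of all 51 was -0.07.

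Of the small subunit genes outside these families, none passed the minimum fold of 1.2. Rps29, a zinc-binding protein, had the largest fall of a core small subunit gene, from 529.8, 548.2 and 548.5 CPM to 466.3, 453.3 and 486.0 CPM (log2 fold change -0.21 ± 0.02, FDR = 1.76e-10). Rps27 fell from 268.8 ± 4.51 to 235.9 ± 18.5 CPM (-0.19 ± 0.03, FDR = 7.11e-07), but 98.5% of its windows are shared and the call was lost with the length and GC correction (-0.021). Rps12 fell from 1124 ± 21.5 to 998.6 ± 56.9 CPM (-0.17 ± 0.03, FDR = 9.81e-08) and the X-linked Rps4x from 1361 ± 17.9 to 1248 ± 11.6 CPM (-0.12 ± 0.02, FDR = 1.13e-06). In these 4 genes the groups did not overlap.

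The small subunit genes chosen for their roles in human disease or signalling mostly had small changes with TMM scaling, and the length and GC correction moved several of them by more than the 0.112 of all genes. Rps19 and Rps26, both mutated in Diamond-Blackfan anaemia, were lower at -0.10 ± 0.02 (FDR = 0.000134) and -0.11 ± 0.02 (FDR = 6.70e-05), and both calls were lost with the length and GC correction, where they stood at -0.03. Rps14, the gene of the 5q deletion syndrome, was higher at 0.06 ± 0.02 (FDR = 0.0109) with TMM scaling and at 0.27 with the length and GC correction. Its call was lost with library totals (0.015), with only genes that averaged 50 or more counts (0.044) and without knockout replicate 2 (0.056). Rps6, the substrate of S6 kinase, was at 788.4, 820.5 and 824.2 CPM and at 827.6, 823.9 and 868.8 CPM (0.05 ± 0.02, FDR = 0.0509), and the groups overlapped, although it passed without knockout replicate 1 (0.062) or 2 (0.066), with no filter (0.056) and with the replicate block (0.051). With the length and GC correction Rps6 was at 0.33 and passed. Rpsa, also known as a laminin receptor precursor, changed by 0.045 ± 0.02 (FDR = 0.0509, passing at 0.042 without knockout replicate 3 or with DESeq2, at 0.050 with no filter and at 0.15 with the correction). Rps27a, which is made as a fusion with ubiquitin, changed by 0.02 ± 0.03 (FDR = 0.470). It passed at 0.084 with the correction, which is below the 0.112 of all genes.

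Among the large subunit genes chosen for their roles, Rpl38 changed the most after Rplp0 and Rpl3. Rpl5 and Rpl11, which with the 5S rRNA bind the p53 regulator MDM2 when ribosome assembly fails, changed by 0.08 ± 0.02 (FDR = 0.00229, lost with library totals at 0.029 and without control replicate 3 at 0.060) and by 0.01 ± 0.03 (FDR = 0.768). With the length and GC correction they were at 0.15 and 0.12, beside a median of 0.112 over all genes, and both passed the test against 0. Rpl10, one of the last proteins to join the large subunit, was at 812.0, 870.4 and 869.7 CPM and at 795.9, 802.4 and 867.9 CPM (-0.05 ± 0.03, FDR = 0.0942), with overlapping groups, and passed without control replicate 1 (-0.083) or knockout replicate 3 (-0.089), with library totals (-0.098) and with only genes that averaged 50 or more counts (-0.069). Rpl38, known for translation of Hox mRNAs in the mouse embryo, was higher at 0.12 ± 0.03 (FDR = 0.000122), from 311.6, 337.0 and 335.5 CPM to 360.2, 343.1 and 365.6 CPM, and stood at 0.36 with that correction. The acidic stalk proteins differed from their scaffold Rplp0: Rplp1 changed by -0.05 ± 0.02 (FDR = 0.0263), which became 0.15 with the length and GC correction, and Rplp2 by 0.04 ± 0.03 (FDR = 0.225, passing at 0.084 without knockout replicate 2 and at 0.21 with the correction). The call of Rplp1 was also lost without control replicate 2 (-0.052) or 3 (-0.057) and without knockout replicate 1 (-0.046) or 2 (-0.042), among others. It was kept in 10 of 16 alternatives. Rpl41, the shortest ribosomal protein, was lower at -0.13 ± 0.02 (FDR = 1.46e-06), which became 0.018 with that correction. Rpl24 had the lowest log2 fold change of the core genes, at -0.33 ± 0.10 (FDR = 0.00441), but on 111 to 208 counts with overlapping groups, and without knockout replicate 2 it was -0.23 and no longer passed.

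The paralogs and relatives contained the largest falls. Rpl39l, a paralog of the tunnel protein Rpl39 expressed in testis and in stem cells, had 744, 689 and 740 counts in the controls and 337, 334 and 407 counts in the libraries labelled knockout (log2 fold change -0.94 ± 0.06, FDR = 4.11e-20). Rpl10l, a retrogene that stands in for the X-linked Rpl10 during meiosis of male germ cells, had 1200, 1197 and 1125 counts and 694, 667 and 871 counts (-0.59 ± 0.05, FDR = 1.21e-15). In both genes every control was above every library labelled knockout. Almost none of their read-length windows are shared with other genes (0% for Rpl39l and 0.105% for Rpl10l), and their parents Rpl39 and Rpl10 changed by -0.09 ± 0.03 (FDR = 0.0192) and -0.05 ± 0.03.

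The other paralogs changed less or had few counts. Rps27rt, a retrogene of Rps27, was at 159.4, 163.9 and 165.1 CPM and at 142.3, 145.8 and 130.3 CPM (-0.22 ± 0.03, FDR = 7.13e-09), with 90.3% of its windows shared. Rps19bp1, whose product binds RPS19 and is no ribosomal protein itself, changed by -0.15 ± 0.04 (FDR = 0.00308), which became 0.062 with the length and GC correction. Rpl36al, a retrogene of Rpl36a, changed by -0.10 ± 0.03 (FDR = 0.00178), Rpl7l1 by -0.08 ± 0.02 (FDR = 0.00594) and Rpl22l1 by -0.07 ± 0.03 (FDR = 0.0301). The length and GC correction ended all 3 of those calls, with Rpl22l1 at 0.013, and that of Rpl22l1 was also lost without control replicate 1 (-0.051) or knockout replicate 2 (-0.045), among others. The call of Rpl22l1 was kept in 11 of 16 alternatives. Rps27l, a p53 target, changed by -0.06 ± 0.03 (FDR = 0.0520). It passed without control replicate 1 (-0.063) or knockout replicate 3 (-0.070), with library totals (-0.105), RLE (-0.059) or upper quartile (-0.063) scaling, with TMM factors without the members (-0.057) and with only genes that averaged 50 or more counts (-0.076), and the muscle form Rpl3l had only 24 to 39 counts per library (0.32 ± 0.21, FDR = 0.159).

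A paralog and its parent can be compared as the share of their summed FPKM that the paralog takes. This share was computed for 8 pairs. Rpl39l took 7.73%, 7.67% and 8.20% of its pair with Rpl39 in the controls and 4.42%, 4.80% and 4.35% in the libraries labelled knockout. Rpl10l took 4.20%, 4.01% and 3.79% of its pair with Rpl10 in the controls and 2.71%, 2.74% and 2.88% in the others, and Rpl7l1 took 8.56% ± 0.062 (SD, n = 3) and 5.84% ± 0.15 of its pair with Rpl7, where the parent rose. Rpl22l1 took 53.9% ± 0.55 and 51.5% ± 0.23 of its pair with Rpl22, a share that rests on representative transcripts of 552 and 2051 bases, and Rps27l took 32.7% ± 0.48 and 34.8% ± 1.47 beside Rps27. By counts not divided by length, the difference was -5.14 rather than -2.72 percentage points for Rpl7l1, -4.23 rather than -3.34 for Rpl39l, -1.44 rather than -1.22 for Rpl10l and -1.76 rather than -2.47 for Rpl22l1. In these 4 pairs and that of Rps27l the groups did not overlap per length, and the exact permutation test gave its smallest value (two-sided p = 0.1, the lowest that 3 libraries against 3 allow, adjusted over the 8 pairs p = 0.16). That value follows from the lack of overlap and adds nothing to it. The pairs were also chosen with earlier results of these data known. Rpl36al, Rps27rt and Rpl3l overlapped between the groups (exact permutation p = 0.9, 1 and 0.8), with differences of 0.174, -0.489 and 0.00616 percentage points.

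**Figure D5:**
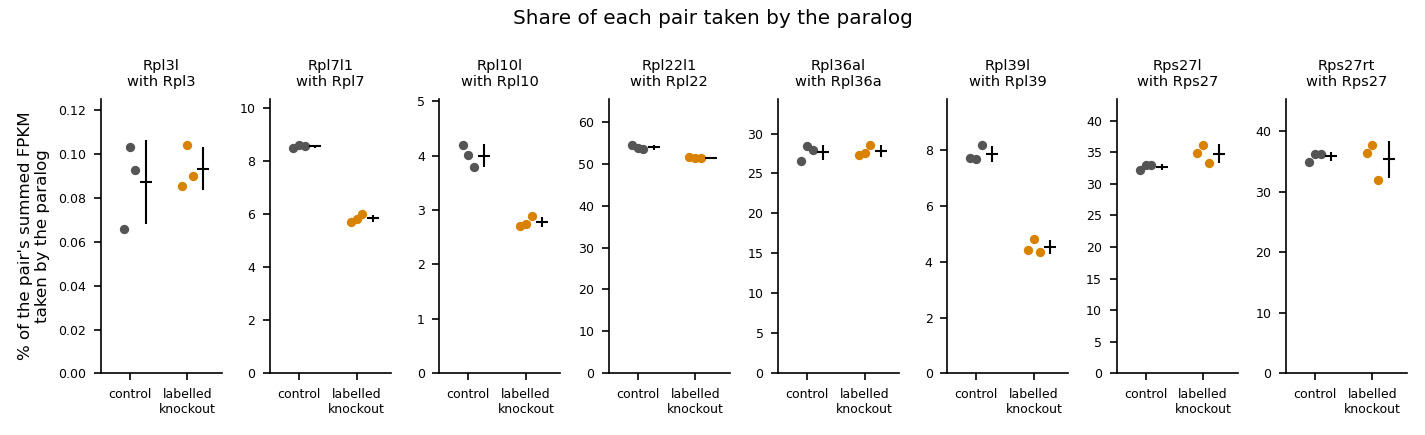
Share of the summed FPKM of a paralog and its parent gene that the paralog takes, by library (points) with mean and SD (n = 3), for 8 pairs in the control libraries (grey) and the libraries labelled knockout (orange). The paralog's share is lower in every library labelled knockout for Rpl39l (mean 7.87% against 4.52%), Rpl7l1 (8.56% against 5.84%), Rpl10l and Rpl22l1.

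The promoters of the members were read from RefSeq (build GRCm38.p6) for a pyrimidine run like that of a terminal oligopyrimidine mRNA. A run was at least 8 consecutive C or T bases on the transcribed strand that overlaps the 10 bases on either side of the annotated start. It could end before that start and so lie outside the annotated mRNA, as in Rpl4 and Rpl31, where it begins at -18. Of the 66 members listed there, 29 (43.9%) had such a run, compared with 15.8% of all 27025 genes listed, and it was in 27 of 57 core genes and 2 of 9 paralogs and relatives. The sequences below run from 40 bases before to 20 bases from the annotated start, with the run in capitals, and show 3 core genes that have it beside Rpl10l and Rpl39l, which fell beyond the minimum fold and have none at that place (a pyrimidine stretch of Rpl39l lies further upstream). They are Rpl4 (chr9:64173347-64173406, plus strand), Rpl31 (chr1:39367811-39367870, plus strand), Rps9 (chr7:3704001-3704060, plus strand), Rpl10l (chr12:66284382-66284441, minus strand) and Rpl39l (chr16:10170188-10170247, plus strand).
Rpl4: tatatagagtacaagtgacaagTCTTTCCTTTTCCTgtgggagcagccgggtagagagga
Rpl31: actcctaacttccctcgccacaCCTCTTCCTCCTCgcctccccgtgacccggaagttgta
Rps9: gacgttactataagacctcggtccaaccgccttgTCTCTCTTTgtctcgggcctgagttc
Rpl10l: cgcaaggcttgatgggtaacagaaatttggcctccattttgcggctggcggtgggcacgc
Rpl39l: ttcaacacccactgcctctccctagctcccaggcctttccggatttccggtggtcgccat

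Both sets of members held genes that rose and genes that fell. Of the 29 with a run, 7 were higher (24.14%) and 8 lower (27.59%), with a median absolute log2 fold change of 0.0561, and 2 were over 0.3. Of the 37 listed without a run, 9 were higher (24.32%) and 20 lower (54.05%), with a median absolute log2 fold change of 0.0892, and 8 were over 0.3. Of all genes tested, 34.4% were higher and 35.2% lower. Those 8 were the paralogs Rpl10l, Rpl39l and Rpl3l, the genes with abundant copies Rplp0, Rps2, Rps3a1 and Rpl24, and Rpl37a on chromosome 1. The sets thus differ in make-up. Rpl4, a core protein of the tunnel wall, was higher at 0.10 ± 0.02 (FDR = 4.90e-05) and Rps9, of the small subunit, changed by -0.03 ± 0.02 (FDR = 0.317), whereas Rpl31 was higher at 0.61. These counts are a description of the annotated starts, and the difference between the sets was not tested.

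Genes that make or regulate ribosomes are given here for comparison, and differences between the lists were not tested. Calls were common everywhere, with 34.4% of all genes tested higher and 35.2% lower. Of the other genes whose counts averaged 1000 or more, 46.75% were higher and 32.8% lower. Of 40 ribosome assembly factors, 25 were higher (62.5%) and 9 lower (22.5%) with a median log2 fold change of 0.11. Nucleolin (Ncl) was higher at 0.64 ± 0.02 and Wdr12 at 0.79 ± 0.03, both on chromosome 1, and the rRNA methyltransferase Nop2 at 0.72 ± 0.02 on chromosome 6, whereas Utp14a (-0.40 ± 0.03) and Sbds (-0.35 ± 0.03), which releases an anti-association factor from the large subunit, were lower. Of 20 genes of RNA polymerase I and its factors, which transcribe rRNA, 12 were higher and 3 lower (median 0.09), among them Taf1b at 0.34 ± 0.04 and the largest subunit Polr1a at -0.16 ± 0.03. Of 36 translation factors, 11 were higher and 10 lower (median 0.01), which became 7 and 17 with library totals. Eif5b, which joins the subunits and lies on chromosome 1, was higher at 0.81 ± 0.02, and Eif4a2 was lower at -0.41 ± 0.02.

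Of 17 genes of mTORC1, LARP1 and MYC, 4 were higher and 8 lower (median -0.03). Myc, which drives transcription of ribosomal protein genes, was lower at -0.68 ± 0.04 (FDR = 2.20e-20) and its relative Mycn at -0.66 ± 0.03 (FDR = 4.84e-27), as was the translation repressor Eif4ebp1 (-0.44 ± 0.03), while Mtor was higher (0.46 ± 0.03). Mitochondrial ribosomal protein genes, which build a separate ribosome, had 44 of 76 higher (57.9%) and 11 lower (14.5%), with a median of 0.12. The shares over all genes tested were 34.4% and 35.2%. In absolute log2 fold change, 27.6% of the mitochondrial genes were over 0.3, against 15.1% of the cytosolic genes. Mrps14 (0.98 ± 0.04) and Mrpl30 (0.83 ± 0.03), both on chromosome 1, had the largest rises and Mrps30 (-0.67 ± 0.04) the largest fall among those that averaged 100 or more counts. Of the 3 core ribosomal proteins with other symbols, Fau was lower at -0.15 ± 0.02 and Rack1 at -0.09 ± 0.02. Of the 8 small nucleolar RNA host genes, 2 were higher, Gas5 (0.72 ± 0.03) and Snhg6 (1.06 ± 0.04) on chromosome 1, and 4 were lower. Of 246 pseudogenes of ribosomal proteins that are named as such, 71 were tested, with 9 higher and 12 lower.

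The libraries of a group differed among themselves in the level of the members. Control replicate 1 had the lowest level of its group in 61 members (median deviation from the group mean -0.02 on the log2 scale). Knockout replicate 3 had the highest level of its group in 62 members (median deviation 0.03), and knockout replicate 2 the lowest in 46 (-0.02). Without knockout replicate 3 the number of members called lower was 40, and without knockout replicate 2 it was 20, against 32 with all libraries.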

How the data were processed

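Poly(A)-selected, stranded libraries of 6 embryonic stem cell lines were analysed, 3 per genotype, and grouped by the genotype in the sample labels. The deposited values are raw counts of fragments per gene. The authors processed reads with CASAVA 1.8.2, removed rRNA reads with Bowtie2 2.1.0, mapped the rest to mm10 with TopHat2 2.0.10 and counted them with HTSeq 0.6.1 in union mode by strand on GENCODE genes, discarding fragments with several locations. Genes with copies may therefore be under-counted. All columns were matched to samples by name (0 unmatched).

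Symbols, coordinates and transcripts came from GENCODE M21 by Ensembl identifier (42425 of 43309 rows). A gene was tested if any 1 library had 10 or more counts of it, with edgeR 4.0.16 (R 4.3.3; TMM, glmQLFit, glmQLFTest, Benjamini-Hochberg FDR at most 0.05); the SE is the absolute log2 fold change over the square root of F. The minimum fold of 1.2 used glmTreat. CPM uses TMM-scaled totals, and FPKM divides by the representative transcript (APPRIS, then support level, then length). Copies were found with blastn 2.17.0. Paralog shares were compared by two-sided exact permutation tests (scipy 1.17.1). The test was checked on simulated data. Alternatives were DESeq2 1.42.0, edgeR's exact test, other scalings and filters, a loess correction for length and GC content (span 0.5), a replicate block and leaving out each library. Members named are the 6 core genes with the largest rises and falls (mean of at least 100 counts), all paralogs, 15 with set roles, those on chromosomes 1, 6 and 8 (some members are not reported here), and at most 3 rises and 3 falls of each other list; Rpl34, Rps7, Rps13, Rpl15, Rpl4, Rps9, Rpl39, Rpl22, Rpl8 and single copies were named after their values were seen. Members and lists were chosen with earlier results of these data known. Exact permutation tests of the members' summed shares were run, but their p-values are not given, because the members were chosen with results known. P-values measure the spread between the libraries of a group, which the series design gives as separate clones. How far that narrow spread covers variation between clones was not tested.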

Additional observations from a re-analysis of the deposited data

How the results depend on the processing

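Of the 37 members named by rule, 16 kept their direction and their side of the threshold under every alternative listed in the methods. Of all 591 such comparisons, 536 kept the call or its absence, 20 lost the call, 30 gained it and 5 reversed. A member without a call could change sign and still count among the 536, as Rpl11 did (0.009 with TMM scaling, -0.039 at its lowest). The length and GC correction, which moves the median of all genes by 0.112, gave 54 members higher and 7 lower in tests against 0. It reversed the sign of Rpl41 (0.018), Rpl22l1 (0.013), Rps19bp1 (0.062), Rplp1 (0.15) and Rpl13 (0.071). Of these, only Rplp1 lay above that shift of all genes. The minimum fold of 1.2 gave 9 higher and 2 lower. DESeq2 gave 22 and 28, the exact test 22 and 28, RLE scaling 22 and 36, upper quartile scaling 21 and 36, library totals 17 and 46, TMM factors without the members 22 and 33, no filter 25 and 27, and a mean of at least 50 counts 20 and 39. Leaving out each library in turn gave 20 to 24 members higher and 20 to 40 lower. It moved the difference in the share of the members between -0.0366 and 0.0503 percentage points, and that of the paralog share between -0.00451 and 0.0141 for Rpl3l, between -0.355 and 0.575 for Rpl36al and between -1.71 and 1.25 for Rps27rt, so that these 4 have no stable sign. Summing members with their copies, an alternative chosen after seeing the data, changed the difference in share to -0.0988 and the log2 fold change of Rplp0 to -0.013; the cause was not tested. With the replicate block, 24 members were higher and 33 lower. Libraries with the same number had correlated deviations of only 0.017, 0.073 and 0.013, and control replicate 1 correlated best with knockout replicate 3 (0.053), so the numbers do not pair the libraries. Depth limits Rpl3l and Rpl24, with few counts, and discarded multi-mapped fragments limit every member with copies.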

Other observations

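Among the copies with a mean of at least 100 counts that belong to no family described above, Gm15500 had the highest log2 fold change (0.44) and Gm8292 followed at 0.30. Rps15a-ps8 on chromosome 4 fell by 1.17 on the log2 scale, from 429 to 532 counts in the controls to 200 to 210 counts in the libraries labelled knockout, while Rps15a itself changed by -0.08. Gm10036, a copy of Rpl11, changed by -0.56 and Gm10073, a copy of Rplp1, by -0.56, beside changes of 0.01 and -0.05 in the genes.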
